A study of Mus musculus with 4 samples.

Results

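Translation initiation factor genes were followed in cerebral endothelial cells of mice with and without tamoxifen, given to delete Mgp, the gene of matrix Gla protein, an inhibitor of bone morphogenetic proteins. The genes were taken by symbol, as every listed gene named Eif, then a digit from 1 to 6, then only lower-case letters or digits. This gave 64 of the 24873 listed genes, sorted here into 16 groups by role. The 8 rows of Eif pseudogenes, whose symbols hold a hyphen, were not members. All mice carried a tamoxifen-activated Cre recombinase driven by the VE-cadherin (Cdh5) promoter and Mgp alleles flanked by its target sites, named Cdh5cre;Mgpflox/flox in the labels. The tamoxifen group was injected with 75 mg/kg daily for 5 days at 10 weeks of age, and control littermates of the same genotype received none. Cells were collected on day 9, and male and female mice were mixed. There were 2 control libraries (C1 and C2) and 2 tamoxifen libraries (A1 and A2), each made from cells pooled from 3 mice. The letter A is not explained in the labels, and those columns were taken as the tamoxifen group. The libraries contain no tamoxifen-injected mice without the Mgp alleles or without Cre, so an effect of the drug or the recombinase cannot be told apart from that of the deletion. The labels name the cells tdTomato+, whereas the methods sort them as CD31+CD45-.

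The libraries held 35387438 to 49799321 reads on genes, recovered as whole numbers from 100% of the deposited values. In the normalized counts used here, which are reads divided by a factor per library, the totals of A1 and A2 were 0.747 and 0.697 of the control mean. Mgp itself differed by -0.39 on the log2 scale and did not pass the test (adjusted p = 0.0986). The labelled cell type had its defining markers in every library, but all 10 endothelial markers were lower in the tamoxifen libraries, and their summed normalized counts were 1.15e+06 and 1.17e+06 in the control libraries against 202631 in A1 and 103035 in A2. All 7 neutrophil, 6 erythroid, 5 astrocyte, 5 fibroblast, 5 pluripotent cell and 5 proliferation markers were higher. So were 3 of 5 neuron and 3 of 5 microglia markers, each counted at a limma adjusted p under 0.05. The summed proliferation markers, for example, went from 1070 and 1283 to 73297 and 71172, and the pluripotent markers from 43.8 and 62.6 to 35073 and 27353. No marker was at 0 in either group. These shifts run along with every difference reported below, and their part in it was not tested. In such bulk samples, fewer cells of a type and less RNA per cell cannot be told apart.

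Initiation brings a ribosome to the start codon of an mRNA. The small ribosomal subunit, held open by eIF1, eIF1A and the many-subunit eIF3, receives the initiator tRNA from eIF2 with its bound GTP. The eIF4F complex, made of the cap-binding eIF4E, the scaffold eIF4G and the helicase eIF4A, joins it to the capped mRNA, and eIF5 and eIF5B complete the assembly. The pathway has brakes at both ends. eIF4E-binding proteins, when not phosphorylated by mTORC1, keep eIF4E from eIF4G. The eIF2 kinases phosphorylate the α subunit of eIF2, which then blocks its exchange factor eIF2B and lowers initiation in general, in the reaction called the integrated stress response.

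Of the 64 genes, 56 had a mean of at least 10 normalized counts and were tested, with limma fitted over all 20485 such genes. A gene is said here to have risen or fallen where its Benjamini-Hochberg adjusted p was under 0.05, and to be past both limits where its log2 fold change also exceeded 1 in size. Past both limits, 10 initiation factor genes were higher in the tamoxifen libraries and 2 were lower. Of the 10, Eif4e1b and Eif4a3l1 had no read in the controls and passed the filter only through the tamoxifen libraries, so their calls follow from the filter. With a mean of at least 100 as the filter, 8 were higher and 2 lower, or 15.1% and 3.77% of 53 members. The 10 and 2 of the main filter are 17.9% and 3.57% of the tested members. They stand against 28.6% and 16.0% of all tested genes, so both shares lay below the background. By the adjusted p alone, 24 rose and 6 fell, or 42.9% and 10.7%, against a background of 33.4% and 25.5%, and 26 did not pass. Both tamoxifen libraries lay above both controls for 32 of the 56 genes and below them for 13, which is 57.1% and 23.2% against 43.1% and 39.2% of all genes. The median log2 fold change was 0.29 over the members and 0.05 over all genes. For the fits with a library left out, given next, the shares of all genes were not computed. Without A1 the genes past both limits numbered 7 higher and 0 lower and those by adjusted p alone 10 and 0. Without A2 the corresponding numbers were 9 and 0, and 11 and 1. Without C1, 15 rose by adjusted p alone.

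**Figure D1:**
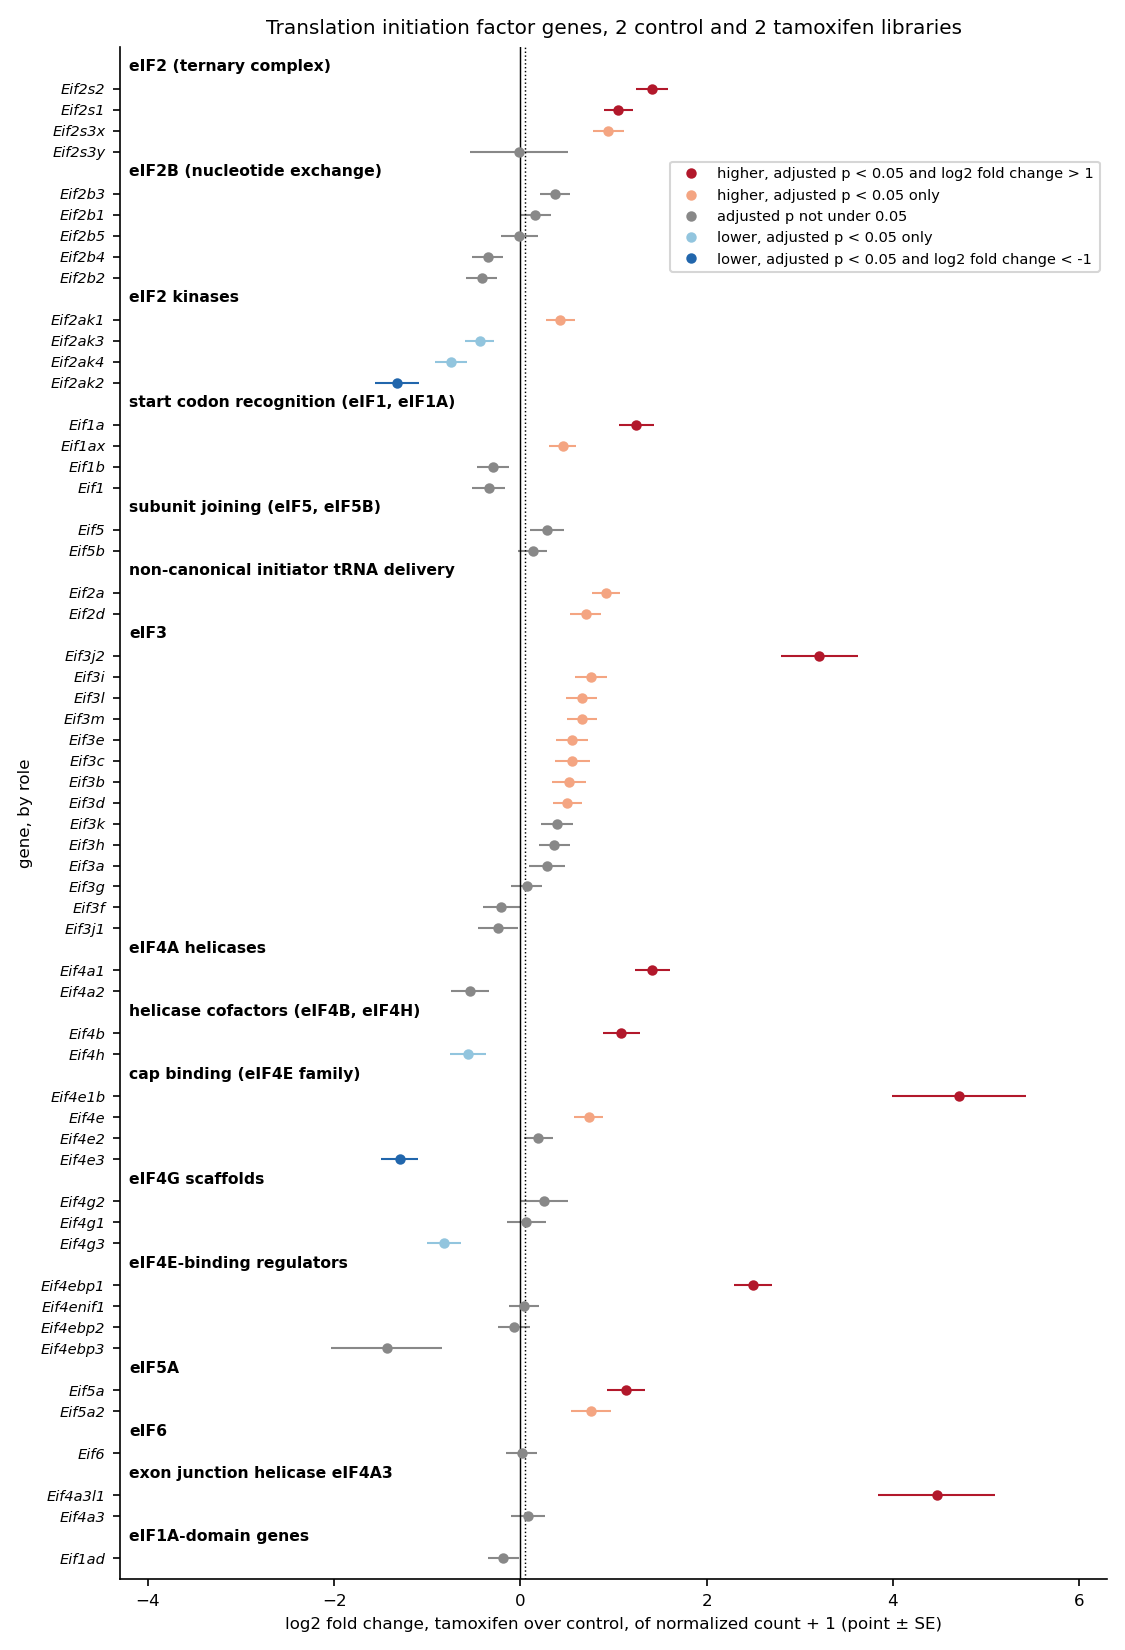
Log2 fold changes (tamoxifen over control) of normalized count + 1 for the 56 tested initiation factor genes, grouped by role, with points for the estimate and bars for its SE; colours give the call and the dotted line is the median of all tested genes (0.05). The points of Eif4e1b and Eif4a3l1, which had no read in the controls, are set by the pseudocount and are no measure of size. The other genes range from 3.21 (Eif3j2) to -1.44 (Eif4ebp3), and the groups eIF2, eIF3 and eIF5A lie mostly to the right of 0.

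These values depend on how the libraries are scaled. With every library set to the same total, the median of all genes moved up by 0.47, to 0.52, and that of the members went to 0.76. In that scaling 39 members rose and 2 fell, or 69.6% and 3.57%, against 44.3% and 14.0% of all genes. With quantile normalization the median of all genes moved by -0.25, to -0.20, while that of the members went to 0.62, and single genes moved in either direction. The members' median therefore lay above that of all genes by 0.23 as deposited, 0.24 with equal totals and 0.82 after quantile normalization. The share of a library's reads does not depend on its factor, but it amounts to the scaling with equal totals and is no separate check. All 64 genes together took 0.647% of the reads in C1 and 0.654% in C2, and 1.12% in A1 and 1.05% in A2. Their summed normalized counts as deposited were 332082 in C1 and 335720 in C2, and 430901 in A1 and 375849 in A2. By either measure both tamoxifen libraries were above both controls. With 2 libraries per group, an exact permutation test of such a single value cannot give a two-sided p below 0.333.

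**Figure D2:**
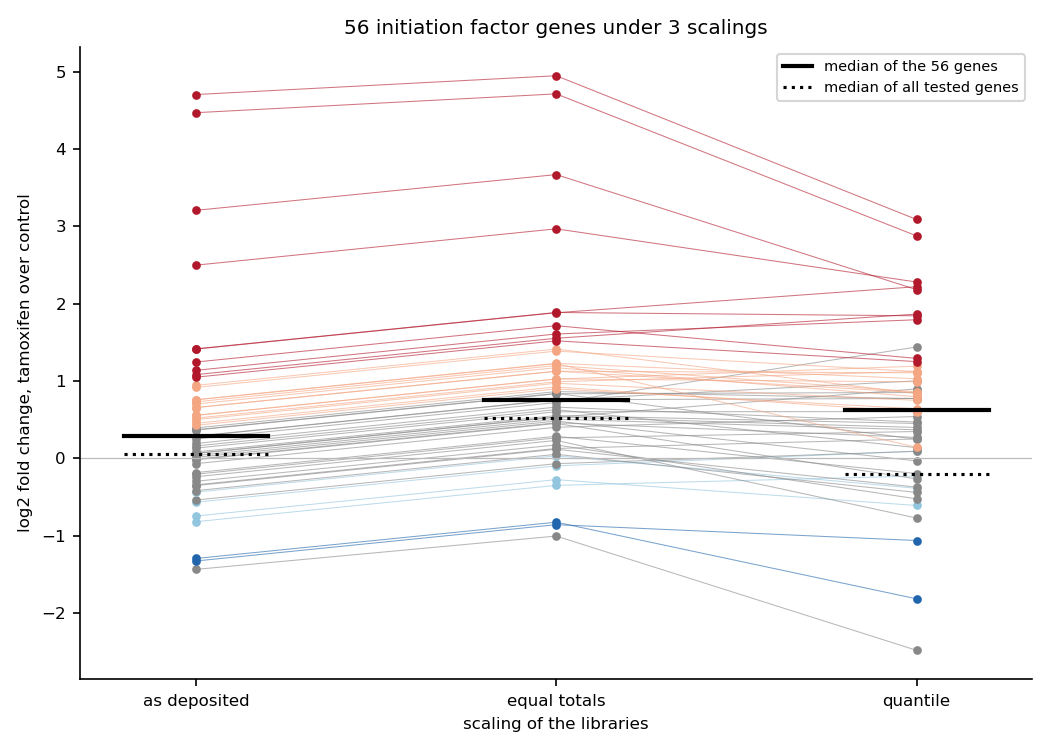
Log2 fold changes (tamoxifen over control) of the 56 tested initiation factor genes as deposited, with equal library totals and after quantile normalization, a line joining the values of each gene, in the colours of its call as deposited (dark red and orange for higher, dark and light blue for lower, grey for not past the test). The members' median (solid bar) stood at 0.29, 0.76 and 0.62, above the median of all tested genes (dotted bar) at 0.05, 0.52 and -0.20.

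The genes of eIF2 rose together, apart from the copy on the Y chromosome (75% of 4 risen, against 33.4% of all tested genes). Eif2s2, which encodes the β subunit (chr2:154713330-154734855, GRCm39), stood at 3465 and 3498 normalized counts in C1 and C2 and at 10451 and 8275 in A1 and A2. This is a 2.67-fold rise (log2 fold change 1.42 ± 0.17 SE, limma adjusted p = 0.000302). Eif2s1, the gene of the α subunit that the kinases phosphorylate (chr12:78907681-78935018), went from 2086 and 1907 to 4400.2 and 3879.9, a 2.07-fold rise (1.05 ± 0.15, adjusted p = 0.000796). In neither gene did the groups overlap, and both passed the adjusted p whichever library was left out. The log2 fold change of Eif2s1 was 0.99 without C2 and 0.96 without A1, under the size limit.

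The γ subunit, which binds GTP and the initiator tRNA, has a copy on each sex chromosome. Eif2s3x (chrX:93232313-93256468) went from 905 and 1018 to 1776 and 1923 and rose by 0.94 ± 0.16 on the log2 scale (adjusted p = 0.00183, and 0.0606 without A2, the highest of its alternatives, whose lowest was 1.71e-05). Eif2s3y (chrY:1008409-1047462) did not pass (log2 fold change -0.02 ± 0.52), with 1752 and 731 in the controls against 1872 and 667. C1 and A1 were high and C2 and A2 low, so the groups overlapped. Other Y-linked genes were likewise higher in C1 than in C2 and higher in A1 than in A2. The normalized counts of Ddx3y were 3252 and 1543 against 2435 and 779, those of Uty 967 and 280.4 against 534 and 193, and those of Kdm5d 1839.6 and 922 against 877 and 76.9. Xist, the RNA of the inactive X chromosome, was 16349 and 18843 in the controls, 1231 in A1 and 33340 in A2. The make-up of the pooled mice by sex is not given, and its part in the eIF2γ values was not tested. Eif2s3x made up 34.1% and 58.2% of the summed γ subunit counts in the controls and 48.7% and 74.2% in the tamoxifen libraries. The coding sequences of the copies are 86.3% identical. A stretch of 60 coding bases around the GTP-binding P-loop, in exons 2 and 3 of each (GRCm39), shows how far reads can separate them, with the 12 differing bases in capitals:
Eif2s3x: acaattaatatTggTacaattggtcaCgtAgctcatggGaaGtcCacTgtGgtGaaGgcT
Eif2s3y: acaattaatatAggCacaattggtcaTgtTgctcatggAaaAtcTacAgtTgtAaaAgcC

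For the exchange factor and the kinases the values were mixed. None of the 5 genes of eIF2B, which reloads eIF2 with GTP, passed the test, and their log2 fold changes ran from -0.42 (Eif2b2) to 0.37 (Eif2b3). Of all tested genes, 33.4% rose and 25.5% fell. With equal totals Eif2b1 (0.63) and Eif2b3 (0.84) passed, and Eif2b2 passed as lower in edgeR (adjusted p = 0.0454) and after quantile normalization (0.0356). Eif2b4, for example, stood at 1853 and 2061 in the controls and at 1644 and 1426 in the tamoxifen libraries (-0.35 ± 0.16, adjusted p = 0.0984), and Eif2b5 at 3608 and 4257 against 4567 and 3316 (-0.01 ± 0.20), with overlapping groups. The ratio of Eif2s1 to Eif2b4 counts, picked after the values had been seen, was 1.13 and 0.925 in the controls and 2.68 and 2.72 in the tamoxifen libraries.

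Of the 4 eIF2 kinases, 3 fell and 1 rose (75% and 25%, against 25.5% and 33.4% of all tested genes). Eif2ak2, the gene of PKR, which senses double-stranded RNA and is induced by interferon (chr17:79159972-79190012), went from 7787 and 5408 to 3067 and 2178. It was 2.51-fold lower (log2 fold change -1.33 ± 0.23, adjusted p = 0.00195). Eif2ak4, the gene of GCN2, which senses uncharged tRNA, went from 3829.8 and 3254 to 2326 and 1905 (-0.75 ± 0.17, adjusted p = 0.00725). Eif2ak3, the gene of PERK in the endoplasmic reticulum, went from 2481 and 2517 to 1982 and 1717 (-0.44 ± 0.16, adjusted p = 0.0421). Eif2ak1, the gene of HRI, the haem-regulated kinase of red cell precursors, went from 2624 and 2857 to 3989 and 3403 (0.43 ± 0.16, adjusted p = 0.0482). None of the kinase genes had overlapping groups, which is common here. Of all tested genes, 43.1% had both tamoxifen libraries above both controls and 39.2% had them below.

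The order of the kinase transcripts within a library differed between the groups. Eif2ak2 held the largest share of the summed kinase counts in both controls, with 46.6% and 38.5%, and 27.0% and 23.7% in the tamoxifen libraries. Eif2ak1 held 15.7% and 20.4%, and then 35.1% and 37.0%, the largest share there. The erythroid markers named above were higher in the same libraries, and their part in the Eif2ak1 values was not tested. The calls of this group are not equally firm. That of Eif2ak2 was lost without A1 (adjusted p = 0.0642) or without A2 (0.111), in a range over its alternatives from 1.94e-10 to 0.111, and that of Eif2ak4 without A1 (0.0593) or A2 (0.104). Eif2ak1 (0.0793 to 0.241) and Eif2ak3 (0.0611 to 0.146) did not pass whichever library was left out, and with equal totals Eif2ak4 stood at -0.28, which did not pass, Eif2ak3 at 0.03 and Eif2ak2 at -0.86, under the size limit.

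Of the 4 genes of start codon recognition, 1 was higher past both limits, as were 28.6% of all tested genes. By the adjusted p alone, 50% of the 4 rose, against 33.4% of all tested genes. Eif1a, on chromosome 18, encodes eIF1A, which helps the scanning subunit to find the start codon. It stood at 1305 and 1272 in the controls and at 3543 and 2638 in the tamoxifen libraries, a 2.37-fold rise (log2 fold change 1.25 ± 0.18, adjusted p = 0.000788). Its X-linked partner Eif1ax went from 2172 and 2342 to 3109 and 3069 (0.45 ± 0.15, adjusted p = 0.0299, and 0.0817 to 0.189 with any 1 library left out). The share of Eif1a in their sum was 37.5% and 35.2% in the controls and 53.3% and 46.2% in the tamoxifen libraries. Eif1, the gene of eIF1 that guards against wrong start codons, was 13108 and 12725 in the controls against 10891 and 9527, and Eif1b 1115 and 1312 against 986 and 983. Neither passed (-0.34 ± 0.17 and -0.30 ± 0.17), although in both the tamoxifen libraries lay below the controls. After quantile normalization Eif1b passed (-0.52).

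Next came the genes of subunit joining and of other routes for the initiator tRNA. Eif5, whose product triggers GTP hydrolysis by eIF2, and Eif5b, whose product joins the large subunit, did not pass (0.29 ± 0.18 and 0.13 ± 0.15). Both passed with equal totals (0.76 and 0.60) and after quantile normalization (0.78 and 0.61). The genes of 2 factors that can bring an initiator tRNA without eIF2 both rose, as did 33.4% of all tested genes. Eif2a went from 2098 and 2156 to 4260.4 and 3791 (0.92 ± 0.15, adjusted p = 0.00136), and Eif2d from 1649 and 1959 to 3145 and 2724 (0.70 ± 0.17, adjusted p = 0.00823). The call of Eif2a held without any 1 library, and that of Eif2d without C2 but not without C1 (adjusted p = 0.0573), A1 (0.106) or A2 (0.0774).

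In eIF3, the largest initiation factor, 8 of 14 genes rose and none fell (57.1% risen, against 33.4% of all tested genes), and the median log2 fold change was 0.51. The core genes that rose did so by less than the size limit. They were Eif3i (2476 and 3051 against 4959 and 4366, log2 fold change 0.76 ± 0.17), Eif3l (0.66 ± 0.17), Eif3m (0.66 ± 0.16), Eif3e (0.56 ± 0.17), Eif3c (0.56 ± 0.19), Eif3b (0.52 ± 0.18) and Eif3d (0.50 ± 0.16). Their adjusted p-values lay between 0.00618 and 0.0405, but none of the 7 passed without A1, and only Eif3m passed without A2 (0.0490) or without C1 (0.0237). Eif3a, Eif3h and Eif3k had positive values that did not pass (0.28, 0.37 and 0.39), but all of them did with equal totals (0.76, 0.84 and 0.86) and after quantile normalization (1.00, 0.85 and 0.77). Without the mean-variance trend none of the 7 that rose passed (adjusted p from 0.0537 to 0.117). Eif3f stood at 9557 and 10908 against 10239 and 7662, and Eif3g at 4112 and 4705 against 5045 and 4199.8, both with overlapping groups.

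The mRNA levels of the subunits can be set against each other within a library, per kilobase of transcript, which says nothing of the protein complex. Eif3f made up 8.07% and 8.36% of the summed eIF3 level in the controls and 5.65% and 5.03% in the tamoxifen libraries. Eif3g went from 11.3% and 11.7% to 9.05% and 8.96%. Eif3i went the other way, from 6.65% and 7.44% to 8.71% and 9.12%, and Eif3l from 7.19% and 7.52% to 8.63% and 8.72%. In these 4 subunits the groups did not overlap, nor in any other except Eif3d, Eif3e and Eif3k. Such separation is common here. By counts, 43.1% of all tested genes had both tamoxifen libraries above both controls and 39.2% had them below. The shares of a library are also bound to each other, since a larger one leaves less for the rest. Eif3k, the most abundant per kilobase, was 14.4% and 15.6% against 14.7% in both tamoxifen libraries. The shares of the subunit transcripts differed between the groups by at most a few percentage points, most of all Eif3f with -2.88.

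**Figure D3:**
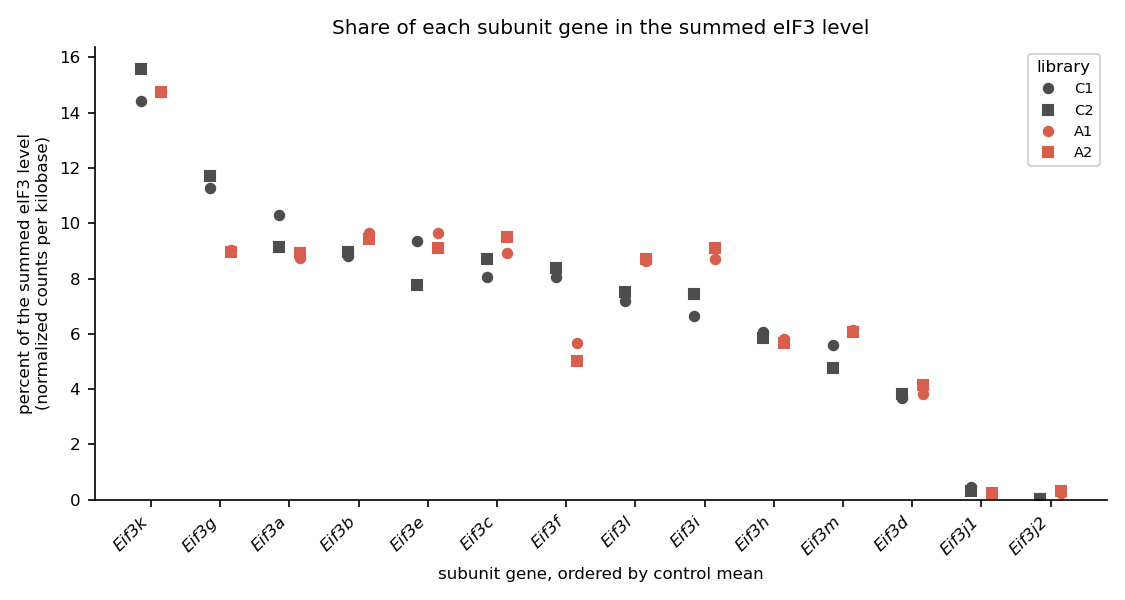
Share (percent) of each eIF3 subunit gene in the summed eIF3 level of its library, from normalized counts per kilobase of transcript, with 1 point per library (grey for control, red for tamoxifen). Eif3f and Eif3g are lower in both tamoxifen libraries and Eif3i and Eif3l higher, while Eif3j1 and Eif3j2 stay under 0.5%.

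The loosely bound j subunit comes from a pair of genes. Eif3j2, a copy without introns in the annotation, went from 41.1 and 26.3 normalized counts to 300.2 and 325, 9.25-fold higher (log2 fold change 3.21 ± 0.41, adjusted p = 0.000419). Eif3j1 on chromosome 2 was at 790.3 and 612 against 615 and 566 (-0.24 ± 0.21, adjusted p = 0.364). Eif3j2 had 4.94% and 4.12% of the summed counts of the pair in the controls and 32.8% and 36.5% in the tamoxifen libraries. Of the 100-base windows of the Eif3j2 transcript, 84.0% also occur in Eif3j1, as do 35.9% of those of Eif3j1 in Eif3j2, so most stretches of Eif3j2 cannot be told from Eif3j1 and the count of Eif3j2 is uncertain. After quantile normalization Eif3j1 passed (-0.77). The call of Eif3j2 was lost without A1 (adjusted p = 0.0598) or A2 (0.0654, the highest of its alternatives, whose lowest was 6.85e-13).

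Of the eIF4A helicase genes of eIF4F, Eif4a1 rose and Eif4a2 did not pass. Eif4a1 (chr11:69557762-69563249), the gene of the main eIF4A of dividing cells, stood at 9879.9 and 10779 in the controls and at 29063 and 26015 in the tamoxifen libraries. It was 2.66-fold higher (log2 fold change 1.41 ± 0.19, adjusted p = 0.000475). Its close relative Eif4a2, abundant in brain and muscle, had 18046 and 13979 against 11995 and 9963 (-0.54 ± 0.21, adjusted p = 0.0540), which did not pass, though the groups did not overlap. With equal totals the value of Eif4a2 was -0.07, and after quantile normalization 0.09. It passed as lower in DESeq2 (-0.53, adjusted p = 0.0402). In limma it did so with a mean of at least 100 as the filter (0.0459), a pseudocount of 5 (0.0481) or the replicate block (0.0461). The share of Eif4a1 in the sum does not depend on the factor of a library, and it went from 35.4% and 43.5% to 70.8% and 72.3%. Per kilobase it was 43.1% and 51.6% against 77.0% and 78.3%. The order of the pair was thus opposite in the groups by counts, which depend on transcript length. Per kilobase Eif4a1 was already the larger in C2 (51.6%), so there the order was opposite only in C1. Their coding sequences are 78.5% identical. The 60 bases of exon 6 that encode the DEAD box, the helicase motif that gives the family its name, lie at chr11:69559512-69559571 on the minus strand and chr16:22928992-22929051 on the plus strand (GRCm39). The 8 differing bases are in capitals:
Eif4a1: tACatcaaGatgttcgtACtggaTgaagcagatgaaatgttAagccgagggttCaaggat
Eif4a2: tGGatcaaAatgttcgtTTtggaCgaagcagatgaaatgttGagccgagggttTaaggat

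Of the 100-base windows of Eif4a2, 5.48% recur in another gene, Gm2999, and none in Eif4a1. For Eif4a1, however, 60.8% recur in the pseudogenes Eif4a-ps4 or Gm5513. The row of Eif4a-ps4 went from 86.3 and 105 to 340.3 and 311, small beside Eif4a1. The helicase cofactors had values of opposite sign. Eif4b (chr15:101982075-102005614) rose from 11608 and 12586 to 28336 and 23159, by 2.12-fold (1.08 ± 0.20, adjusted p = 0.00240), and by 0.94 on the log2 scale without A1, under the size limit. Eif4h fell from 18078 and 19848 to 14092 and 11599 (-0.57 ± 0.19, adjusted p = 0.0364), but its value was -0.10 with equal totals and 0.09 after quantile normalization, and it did not pass whichever library was left out (adjusted p from 0.0650 to 0.214).

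**Figure D4:**
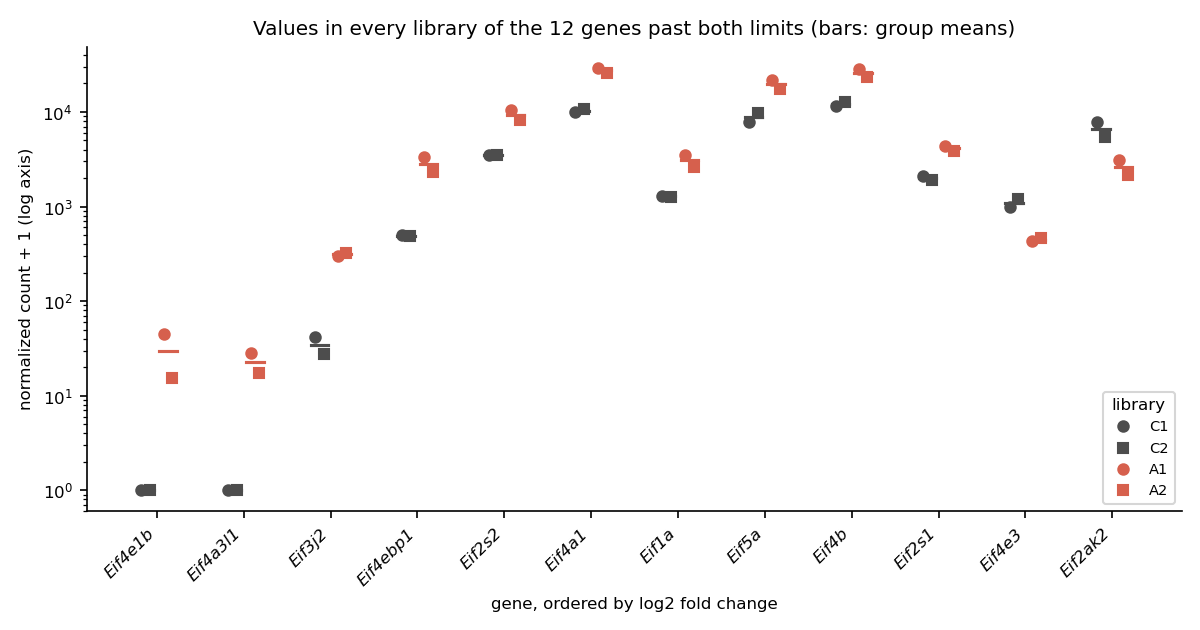
Normalized count + 1 (log axis) of the 12 initiation factor genes past both limits in every library, with grey for control, red for tamoxifen, circles for C1 and A1, squares for C2 and A2 and a bar for each group mean. The groups do not overlap for any of them, and Eif4e1b and Eif4a3l1 are at 0 in both controls.

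The transcripts of the cap-binding family also differed in their proportions. Eif4e, the gene of the main cap-binding factor, went from 1927 and 1902 to 3406 and 2968 (0.73 ± 0.15, adjusted p = 0.00460, and 0.0510 without A1, the highest of its alternatives, whose lowest was 0.000434). Eif4e2, whose product binds caps without joining eIF4G and represses mRNAs, was 3493 and 3618 against 4371 and 3778 (0.19 ± 0.15, not past, but past with 0.66 under equal totals and 0.47 after quantile normalization). Eif4e3 (chr6:99602081-99643784), the most distant member, fell from 993 and 1203 to 429 and 461, 2.45-fold lower (-1.30 ± 0.20, adjusted p = 0.000978). Eif4e3 stayed lower past the adjusted p in all 11 alternatives that kept the 4 libraries, as did Eif2ak2, though with equal totals it stood at -0.83, under the size limit, and its call was lost without A1 (adjusted p = 0.0544) or A2 (0.0547), in a range over its alternatives from 2.46e-07 to 0.0547. Within the family, Eif4e took 30.1% and 28.3% of the counts in the controls and 41.3% and 41.1% in the tamoxifen libraries, and Eif4e3 took 15.5% and 17.9%, then 5.20% and 6.38%. Eif4e1b (chr13:54931811-54936272), known from oocytes and early embryos, had no read in either control and 43.4 and 14.4 normalized counts in A1 and A2. Set against a floor of 3 reads per control library, it was at least 7.34-fold higher by the tamoxifen mean and at least 3.66-fold higher by A2 alone. The pluripotent cell markers were higher in the same libraries, and their part in this value was not tested.

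For the scaffolds the calls depended on the scaling. Eif4g1 was 25846 and 25849 in the controls and 28747 and 25324 in the tamoxifen libraries (0.06 ± 0.21). Eif4g2, which encodes a scaffold that lacks the eIF4E-binding part, was 46963 and 41379 against 52749 and 52187 (0.25 ± 0.26). Neither passed as deposited, but with equal totals both did (0.53 for Eif4g1 and 0.72 for Eif4g2), as they did after quantile normalization (0.90 and 1.44). Eif4g3 fell from 15414 and 16724 to 8325 and 9939 (-0.82 ± 0.18, adjusted p = 0.00590). Its share of the scaffold counts went from 17.5% and 19.9% to 9.27% and 11.4%, and its log2 fold change was -0.35 with equal totals and -0.23 after quantile normalization, neither of which passed. Without A1 its adjusted p was 0.0613.

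The smallest adjusted p of all members was that of a brake on eIF4E. Eif4ebp1 (chr8:27750350-27805206), the gene of 4E-BP1, stood at 497 and 487 normalized counts in the controls and at 3330.5 and 2333 in the tamoxifen libraries. This is a 5.66-fold rise (log2 fold change 2.50 ± 0.21, adjusted p = 6.73e-05), and the call held without any 1 library. Eif4ebp2, the most abundant of the family (chr10:61264032-61288567), was 11706 and 12381 against 11973 and 11013 (-0.07 ± 0.17, not past). With equal totals it passed as higher (0.40), as it did after quantile normalization (0.54). The rare Eif4ebp3 had 17.8 and 25.0 against 6.50 and 7.91 (-1.44 ± 0.59, adjusted p = 0.0693, but 0.0177 without the mean-variance trend and 0.00870 after quantile normalization), and 46.0% of its windows are shared with the overlapping gene Maskbp3. Eif4enif1, whose product carries eIF4E into the nucleus, did not pass (0.04 ± 0.16), though it did with equal totals (0.51) and after quantile normalization (0.37). Eif4ebp1 took 4.07% and 3.78% of the family's counts in the controls and 21.8% and 17.5% in the tamoxifen libraries. Per kilobase these shares were 11.2% and 10.4% against 45.4% and 38.8%. Counts of Eif4ebp1 per count of Eif4e, a ratio picked after the values had been seen, went from 0.258 and 0.256 to 0.978 and 0.786. The coding sequences of Eif4ebp1 and Eif4ebp2 are 69.1% identical. The 60 coding bases around their eIF4E-binding motif, from exons 1 and 2 of each (GRCm39), differ at 14 positions, in capitals:
Eif4ebp1: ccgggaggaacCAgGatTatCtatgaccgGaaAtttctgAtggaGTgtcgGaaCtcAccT
Eif4ebp2: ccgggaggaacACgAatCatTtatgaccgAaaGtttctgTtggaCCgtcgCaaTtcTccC

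**Figure D5:**
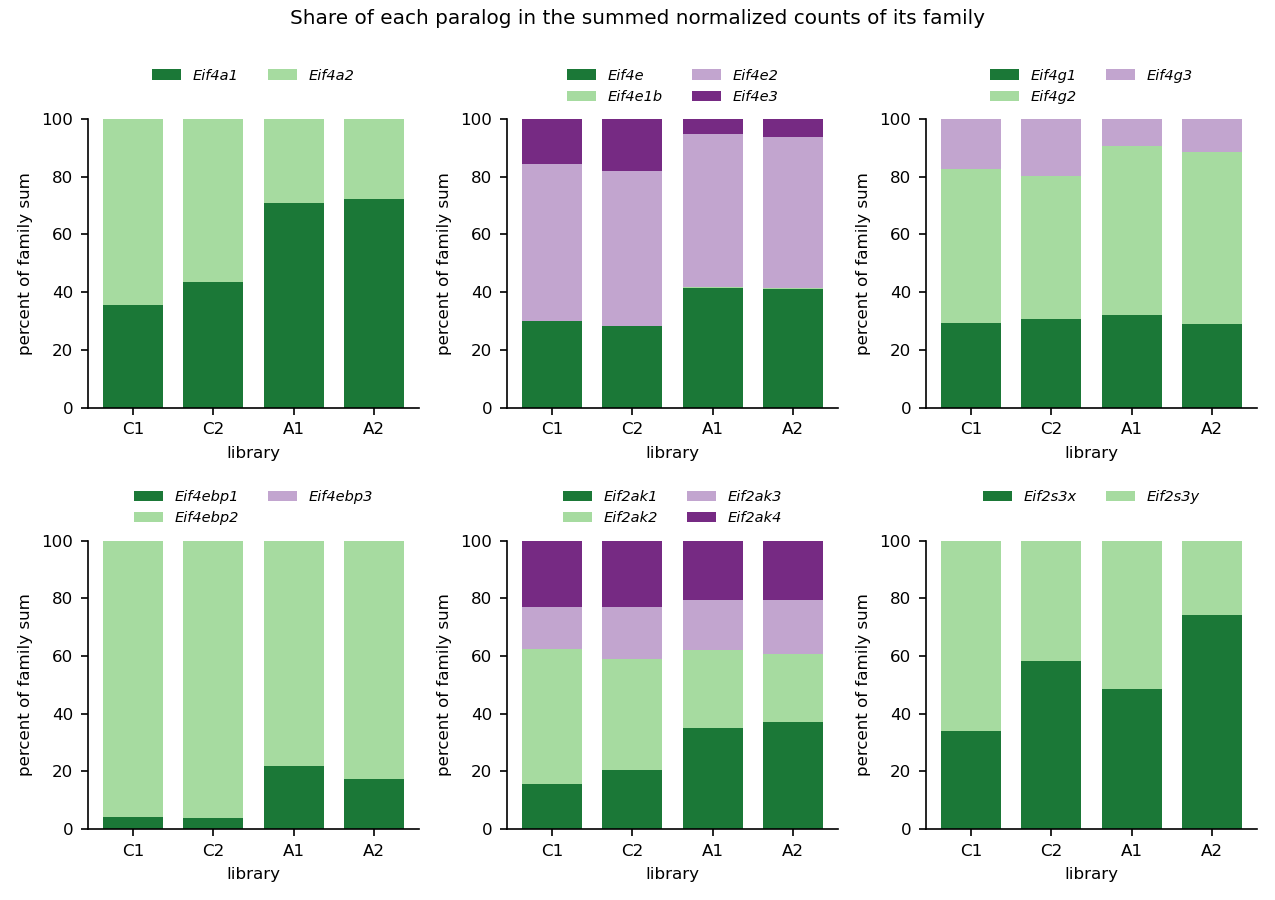
Share (percent) of each paralog in the summed normalized counts of its family, in 6 families, with 1 stacked bar per library. Eif4a1, Eif4e, Eif4ebp1 and Eif2ak1 take larger shares in both tamoxifen libraries and Eif4e3, Eif4g3 and Eif2ak2 smaller ones, while the shares of Eif2s3x and Eif2s3y overlap between the groups.

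As did 33.4% of all tested genes, both eIF5A genes rose as deposited. Their product, named as an initiation factor, mainly helps ribosomes through difficult stretches and carries the modified lysine hypusine. Eif5a (chr11:69807422-69827276) went from 7880.1 and 9845 to 21512 and 17488, 2.20-fold higher (log2 fold change 1.14 ± 0.20, adjusted p = 0.00207, and 0.0706 without A1 or 0.0562 without A2, with 8.64e-07 as the lowest of its alternatives). Without C1 its log2 fold change was 0.98, under the size limit. Eif5a2, the far rarer copy (chr3:28835361-28852995), went from 438 and 423 to 816 and 649.9 (0.76 ± 0.22, adjusted p = 0.0178, and 0.128 without A1 or 0.0704 without A2). After quantile normalization it stood at 0.14 and did not pass (adjusted p = 0.578). Its share of the pair was 5.27% and 4.12%, then 3.65% and 3.58%. Around the hypusine site, in exons 2 and 3 of each gene (GRCm39), the copies differ at 8 of 60 coding bases, in capitals, and over the whole coding sequence they are 73.2% identical:
Eif5a: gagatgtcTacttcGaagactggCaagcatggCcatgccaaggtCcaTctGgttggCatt
Eif5a2: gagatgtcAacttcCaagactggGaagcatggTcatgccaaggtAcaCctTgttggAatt

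Eif6, which keeps the ribosomal subunits apart, was 1546 and 1693 against 1767 and 1509 (0.01 ± 0.17) and did not pass. Eif4a3, the helicase of the exon junction complex, was 4195 and 5451 against 5442 and 4716 (0.08 ± 0.18) and did not pass either. Both had overlapping groups. With equal totals both passed as higher (0.48 and 0.55), and Eif4a3 also after quantile normalization (0.45). Eif1ad, an eIF1A-domain gene, was 1855 and 1914 against 1813 and 1516 (-0.18 ± 0.16, not past).

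A set of rare copies was seen almost only in the tamoxifen libraries. Rarely counted genes had been dropped from the deposited values, so a gene without control reads is listed only through its tamoxifen reads. The one-sided pattern thus follows in part from the listing, and the share of all listed genes that show it was not computed. Eif4a3l1 on chromosome 6, a copy of Eif4a3 (chr6:136304537-136306981), had no read in either control and 27.1 and 16.5 normalized counts in A1 and A2, at least 5.55-fold higher against the floor of 3 reads. Of the 8 members below the limit for testing, 7 are Eif1ad copies on chromosome 12. In the controls 6 of these had no read, and Eif1ad14 had 1 read in C2. In the tamoxifen libraries together they had 9 (Eif1ad14) to 34 reads (Eif1ad10). The eighth, Eif4a3l2, had 2 and 1 reads in the controls and 16 and 17 in the tamoxifen libraries. The highest normalized count among the 8 was 26.0, that of Eif1ad10 in A1. These copies resemble each other, with 8.25% (Eif1ad15) to 65.5% (Eif1ad3) of 100-base windows of the Eif1ad copies found in other genes, so the division of reads among them is uncertain.

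Other members share sequence too, which bears on how surely their reads could be placed. Beside Eif3j2, Eif4a1 and Eif4ebp3, the share of windows found in another annotated gene was 35.3% for Eif2s3x (Gm2223), 20.7% for Eif1, 19.6% for Eif2s2 (Gm9892), 11.9% for Eif5 and 10.1% for Eif3m. Genes on the opposite strand also overlap some members, and whether counting used strand is not given in the sources used here. Plek2, for example, overlaps 21.4% of the exon bases of Eif2s1 and went from 8.22 and 17.5 to 153 and 143 normalized counts, small beside the counts of Eif2s1. Some others were larger relative to their member. Spg11 (21.3% of Eif3j1) went from 2179 and 1986 to 2654 and 2384, and Banf1 (29.9% of Eif1ad) from 1709 and 2272 to 4026 and 3198. Ddx55 (31.3% of Eif2b1) went from 1309 and 1314 to 876 and 980, and Aimp2 (25.6% of Eif2ak1) from 375 and 424 to 874 and 630. Their part in the members' counts was not tested.

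Genes around the initiation factors, listed by function, were read in the same fit, in which 33.4% of all tested genes rose and 25.5% fell. The counts and medians of these lists hold for the scaling as deposited. With equal totals the median of all genes moved up by 0.47, so small values in the lists, falls above all, depend on the scaling. Of 30 partners of initiation, 9 rose and 7 fell, 6 and 1 past both limits, with a median of -0.09. These are 30.0% and 23.3%, near the shares of all genes. Poly(A)-binding proteins, which bridge the mRNA tail to eIF4G, were at the top, with Pabpc4 at 939.6 and 1250.3 against 3973 and 3409 (log2 fold change 1.76 ± 0.19) and Pabpc1 at 17154 and 18902 against 60728 and 47563 (1.58 ± 0.24). Bzw2, a relative of eIF5, rose by as much (1.76 ± 0.15). Nck1, an adaptor, was the gene past both limits that fell (-1.43 ± 0.19). Of 17 genes listed under elongation and termination, 8 rose and 1 fell (47.1% and 5.88%, against those 33.4% and 25.5%), with a median of 0.60. Eef1e1, an elongation factor gene by its symbol only (2.21 ± 0.22), Gspt2, a release factor gene (2.09 ± 0.31), and Eef1b2, a subunit of the exchange factor of eEF1A (1.42 ± 0.18), led them.

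The 18 listed targets of the integrated stress response, which lies downstream of the eIF2 kinases, were not uniform. Of these, 12 rose and 3 fell (66.7% and 16.7%, against 33.4% and 25.5% of all genes), 11 and 2 past both limits, with a median of 2.21. Vldlr, a lipoprotein receptor, went from 87.7 and 113 to 2339 and 2548 (4.60 ± 0.23), Gdf15, a secreted stress signal, from 4.11 and 2.50 to 96.5 and 57.5, and Phgdh, of serine synthesis, from 116 and 196 to 2095 and 2480.2 (3.90 ± 0.28). The control values of Gdf15 rest on 3 and 2 reads, so no fold is given. Atf3, a stress-induced transcription factor, fell from 2075 and 1069 to 607 and 229 (adjusted p = 0.00787), and Ddit4, an inhibitor of mTORC1, from 6647 and 5107 to 2708 and 2323 (-1.22 ± 0.18). Atf4, the transcription factor of the response, whose product is controlled mainly by translation, was lower at the mRNA level as deposited (-0.57 ± 0.17, adjusted p = 0.0228). Its value was -0.10 with equal totals and -0.09 after quantile normalization. Of 15 genes of mTORC1 and MYC, 3 rose and 4 fell, with a median of -0.28. These are 20.0% and 26.7%, below and near the shares of all genes. Myc, a transcription factor known to drive ribosome and translation genes, went from 219 and 280.4 to 1480.5 and 1379.6 (2.52 ± 0.22), and Mycn rose by 1.82 ± 0.17, whereas Max, the gene of their partner protein, fell from 10055 and 9657 to 3947 and 2917 (-1.54 ± 0.19).

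MYC and several related proteins recognise the E-box, here searched as the letters CACGTG, which read the same on both strands. Promoters from RefSeq (GRCm38.p6), from 250 bases before to 50 after a gene's start, were matched for 44 of the 64 members. The E-box was present in 10 of these genes (22.7%), against 8.09% of all 27025 genes with a promoter, tested here or not. The share over the tested genes alone was not computed. By promoter it was present in 12 of 57 (21.1%) against 7.15% of 32851. Of the 10 genes, Eif4a1, Eif4e, Eif5a and Eif5a2 rose, Eif4h fell, and Eif1b, Eif3a, Eif3f, Eif3k and Eif4g1 did not pass. The motif was thus found in members of every outcome, and nothing about binding can be read from the letters. The 60-base stretches below, before the start of the 5 genes that changed, show it in capitals (GRCm38.p6). Eif4e and Eif5a also hold the motif at another place, which is not shown. The stretches lie at chr11:69672580-69672639 (minus strand) for Eif4a1, chr3:138527177-138527236 (plus) for Eif4e and chr11:69921428-69921487 (minus) for Eif5a. The others lie at chr3:28781133-28781192 (plus) for Eif5a2, with a pair in this stretch, and chr5:134639473-134639532 (minus) for Eif4h:
Eif4a1: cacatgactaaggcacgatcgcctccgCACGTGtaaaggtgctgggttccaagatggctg
Eif4e: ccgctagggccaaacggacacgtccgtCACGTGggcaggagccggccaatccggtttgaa
Eif5a: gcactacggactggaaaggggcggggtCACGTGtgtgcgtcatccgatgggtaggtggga
Eif5a2: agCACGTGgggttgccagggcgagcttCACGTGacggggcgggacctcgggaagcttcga
Eif4h: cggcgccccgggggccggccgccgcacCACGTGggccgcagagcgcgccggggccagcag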

How the data were processed

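RNA-Seq of 2 control and 2 tamoxifen libraries was used. Groups came from the sample labels. Columns C1 and C2 match the control titles, and A1 and A2 were taken as the tamoxifen group because A was read as AVM, a letter the labels do not give, after first values had been seen. Alignment by the authors used STAR 2.7.10a and GRCm39, after which rarely counted genes were dropped and DESeq2 1.36.0 normalized the rest. The annotation release, strand setting and low-count limit are not given in the sources used here. The deposited table gives a signal for each gene, which is its read count over the factor of the library. Whole reads were recovered within 0.01 of a whole number for 100% of values. A floor of 3 reads, which is 2.16 to 4.11 normalized counts by library, covers counting error only. The members, the lists and the tests were chosen with earlier results of these data known.

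Differences were tested with limma 3.58.1 under R 4.3.3 (lmFit, eBayes with trend) on log2(normalized count + 1), a scale that understates the fold changes of low genes. Genes needed a mean of 10 or more, with Benjamini-Hochberg adjustment over all 20485. Thresholds were an adjusted p of 0.05 and an absolute log2 fold change of 1. The script was tested on simulated data. Each library was made from a separate pool of mice, so p-values measure the spread between pools. Shares of paralogs were compared by an exact two-sided permutation test. Values per kilobase used the GENCODE M39 transcript length. Shared sequence was counted in windows of 100 bases. Named were all members by role, sex-linked genes beside Eif2s3y, and from each list at most 3 genes per direction with the largest change past both limits. Atf4, Plek2 and the other overlapping genes, the pseudogene row and the ratios were added after their values had been seen. As alternatives, the pseudocount (0.5 or 5), the filter (none or a mean of 100), the scaling (equal totals, recomputed factors or quantile normalization), the trend (none), a replicate block, the tool (edgeR 4.0.16 or DESeq2 1.42.0 on recovered reads), the libraries (each left out) and the call (adjusted p alone) were changed in turn.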

Additional observations from a re-analysis of the deposited data

How the results depend on the processing

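Past both limits, 10 members were higher and 2 lower under pseudocounts of 0.5 and 5, recomputed factors, edgeR and DESeq2, and those shared with the calls as deposited were all 10 and 2. The higher count was 17 of 64 without the filter, 20 with equal totals, 17 after quantile normalization and 24 by the adjusted p alone. The lower count was 0 with equal totals and 6 by the adjusted p alone. Shares of all genes past both limits were not computed under the other filters and scalings, so those counts have no background here. By the adjusted p alone, 13 rose and 4 fell without the trend, and 39 and 2 with equal totals. Leaving out 1 library gave 7 to 10 higher and 0 to 2 lower, and a median log2 fold change of 0.21 to 0.41. That median was 0.41 without the filter, 0.76 with equal totals and 0.62 after quantile normalization. The signs of small values turned with the scaling. With equal totals the log2 fold changes were 0.29 for Eif1ad, 0.45 for Eif2s3y, 0.033 for Eif2ak3, 0.052 for Eif2b2, 0.12 for Eif2b4, 0.46 for Eif2b5, 0.27 for Eif3f, 0.23 for Eif3j1, 0.40 for Eif4ebp2, 0.13 for Eif1 and 0.17 for Eif1b. After quantile normalization they were 0.27 for Eif2b5, 0.35 for Eif3f, 0.092 for Eif4a2, 0.54 for Eif4ebp2, -0.033 for Eif6, 0.092 for Eif4h and 0.25 for Eif1. Eif2s3y was 0.0097 in edgeR and 0.049 in DESeq2, and Eif2b5 0.023 in DESeq2. With 1 library left out, the range was -0.76 to 0.73 for Eif2s3y, -0.24 to 0.22 for Eif2b5, -0.41 to 0.0041 for Eif3f, -0.067 to 0.20 for Eif3g, -0.088 to 0.16 for Eif4enif1, -0.030 to 0.15 for Eif4g1, -0.10 to 0.13 for Eif6 and -0.11 to 0.27 for Eif4a3, and the share of Eif1b in its family differed by -0.517 to 0.988 percentage points. Setting equal totals shifts all genes alike by construction, and the cause of the other changes was not tested. Per kilobase, the share of Eif3j2 differed by 44.9 percentage points, that of Eif4e by 6.17, of Eif4ebp1 by 31.3 and of Eif5a2 by -0.308. Over all single results and alternatives with 4 libraries, 530 values kept their direction and their side of the threshold, 35 went past it, 27 no longer did and 21 turned sign. With a library left out, 154 kept theirs, 56 no longer passed and 14 turned sign.

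The replicate numbers of the columns do not pair the libraries by any label, and deviations of same-numbered libraries correlated at 0.025 over the 20485 genes. With the replicate block, 10 members were higher and 2 lower past both limits, and 24 and 7 by the adjusted p alone. With 2 libraries per group, a library left out leaves a lone sample that is assumed to vary like the other group.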
